A study of Mus musculus with 26 samples.

Results

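Transcripts of 10 genes of glucose uptake and glycolysis were followed in mouse pineoblastoma (PB), a tumor of the pineal gland. The genes were chosen by symbol as isozymes or paralogs at successive steps: the glucose transporters Slc2a1 and Slc2a3, the hexokinases Hk1 and Hk2, the phosphofructokinases Pfkm, Pfkp and Pfkl, the aldolase Aldoa, and the lactate dehydrogenases Ldha and Ldhb. All 10 were among the 19938 named genes of the Mouse Gene 1.0 ST arrays, and 9 were among the 22180 named genes of the Mouse Gene 2.0 ST arrays. The probe cluster for Aldoa on the 2.0 array is also annotated to Aldoart1, so Aldoa was not analysed there.

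The 26 samples were snap-frozen tumors and normal cerebellum, each on an array of its own. The 1.0 table held 3 cerebellum samples together with 11 tumors of the Rb/p53-deleted and 5 of the Rb/p53-mutated model. The 2.0 table held 3 tumors of the Dicer1/p53-deleted model, 3 of the Rb/Dicer1/p53-deleted model and a single Rb/p53-deleted tumor (PB12). Every tumor model carried the WAP-Cre transgene, in which the whey acidic protein promoter of mammary gland drives Cre recombinase. Rb/p53-deleted mice had both Rb alleles and both p53 alleles floxed, and Rb/p53-mutated mice had both Rb alleles floxed, 1 floxed p53 allele and 1 p53 allele that expresses a DNA-binding-domain mutant after Cre removes a stop cassette. Dicer1/p53-deleted mice had floxed Dicer1 and p53, and Rb/Dicer1/p53-deleted mice had floxed Rb as well. The reference tissue was cerebellum, not pineal gland, and the labels give no age, sex or animal for any sample. The p-values therefore measure the spread between these samples, which may be technical in part.

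Glycolysis turns glucose into pyruvate in the cytosol, and each of the steps followed here can be run by more than 1 isozyme, with its own kinetics and tissue range. In brain, Slc2a1 is the transporter of the capillary wall and glia and Slc2a3 that of neurons, and Hk1 is the main hexokinase of neurons, whereas Hk2 is the inducible hexokinase of muscle, fat and many tumors. Ldha encodes the M subunit of lactate dehydrogenase, known for turning pyruvate into lactate, and Ldhb encodes the H subunit, known for the reverse direction in heart and neurons.

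The promoters of the lactate dehydrogenase pair are shown because these 2 genes moved in opposite directions in the tumors. Each is the RefSeq window on GRCm38.p6 from 250 bases before to 50 bases after a transcription start, read on the strand of the gene, with the E-box CACGTG in capitals. This palindrome reads alike on both strands and contains the core ACGTG. E-boxes are bound by Myc family factors among others.
Ldha, chr7:46845554-46845853, plus strand: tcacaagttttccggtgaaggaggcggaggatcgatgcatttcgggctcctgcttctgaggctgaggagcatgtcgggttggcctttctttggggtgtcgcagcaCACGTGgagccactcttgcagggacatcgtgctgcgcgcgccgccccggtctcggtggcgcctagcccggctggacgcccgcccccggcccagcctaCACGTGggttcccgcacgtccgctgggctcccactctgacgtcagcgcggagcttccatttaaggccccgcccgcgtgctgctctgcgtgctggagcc
Ldhb, chr6:142507908-142508207, minus strand: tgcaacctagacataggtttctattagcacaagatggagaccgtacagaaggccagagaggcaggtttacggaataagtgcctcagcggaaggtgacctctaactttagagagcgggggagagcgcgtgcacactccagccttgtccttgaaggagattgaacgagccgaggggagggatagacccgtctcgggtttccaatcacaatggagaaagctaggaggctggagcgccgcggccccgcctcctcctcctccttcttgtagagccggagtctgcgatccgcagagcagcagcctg
The Ldha window held 2 E-boxes and 5 copies of ACGTG on either strand, of which each E-box accounts for 2, and the Ldhb window held neither motif. Of all 32851 RefSeq promoter windows, 7.15% held at least 1 E-box and 0.594% held 2 or more, and 19.6% held ACGTG. RefSeq windows were at hand for 9 of the 10 genes (16 windows), and Pfkm was the only other gene with an E-box, in 1 of its 4 windows. A second window of Ldha, at another start, held neither motif. These matches describe letters in the windows, and no binding was measured.

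In Rb/p53-deleted PBs, 1 of the 10 genes was higher than in cerebellum (Ldha) and 7 were lower (Slc2a3, Ldhb, Pfkm, Aldoa, Hk2, Pfkl and Slc2a1), while Hk1 and Pfkp did not pass limma's test at an adjusted p of 0.01. On deposited and on median-centred values both passed too, which made 9 lower. Of all named genes, 24.9% were called higher and 27.7% lower in this comparison. The median difference of the 10 genes was -0.86 on the log2 scale, against 0.01 for all genes. In Rb/p53-mutated PBs, 1 gene was higher (Ldha) and 6 were lower (Slc2a3, Ldhb, Pfkm, Aldoa, Hk2 and Pfkl), with 23.8% of all genes called higher and 27.6% lower, and a median of -0.94 against -0.02. Both tumor models were set against the same 3 cerebellum samples. No array set, inferred from the values as described below, held both Rb/p53-mutated PBs and cerebellum. Array set and tumor therefore cannot be told apart in that comparison. Levels below are log2 RMA values of the 1.0 arrays after quantile normalization across its 19 arrays, and the differences are tumor minus cerebellum on that log2 scale.

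**Figure D1:**
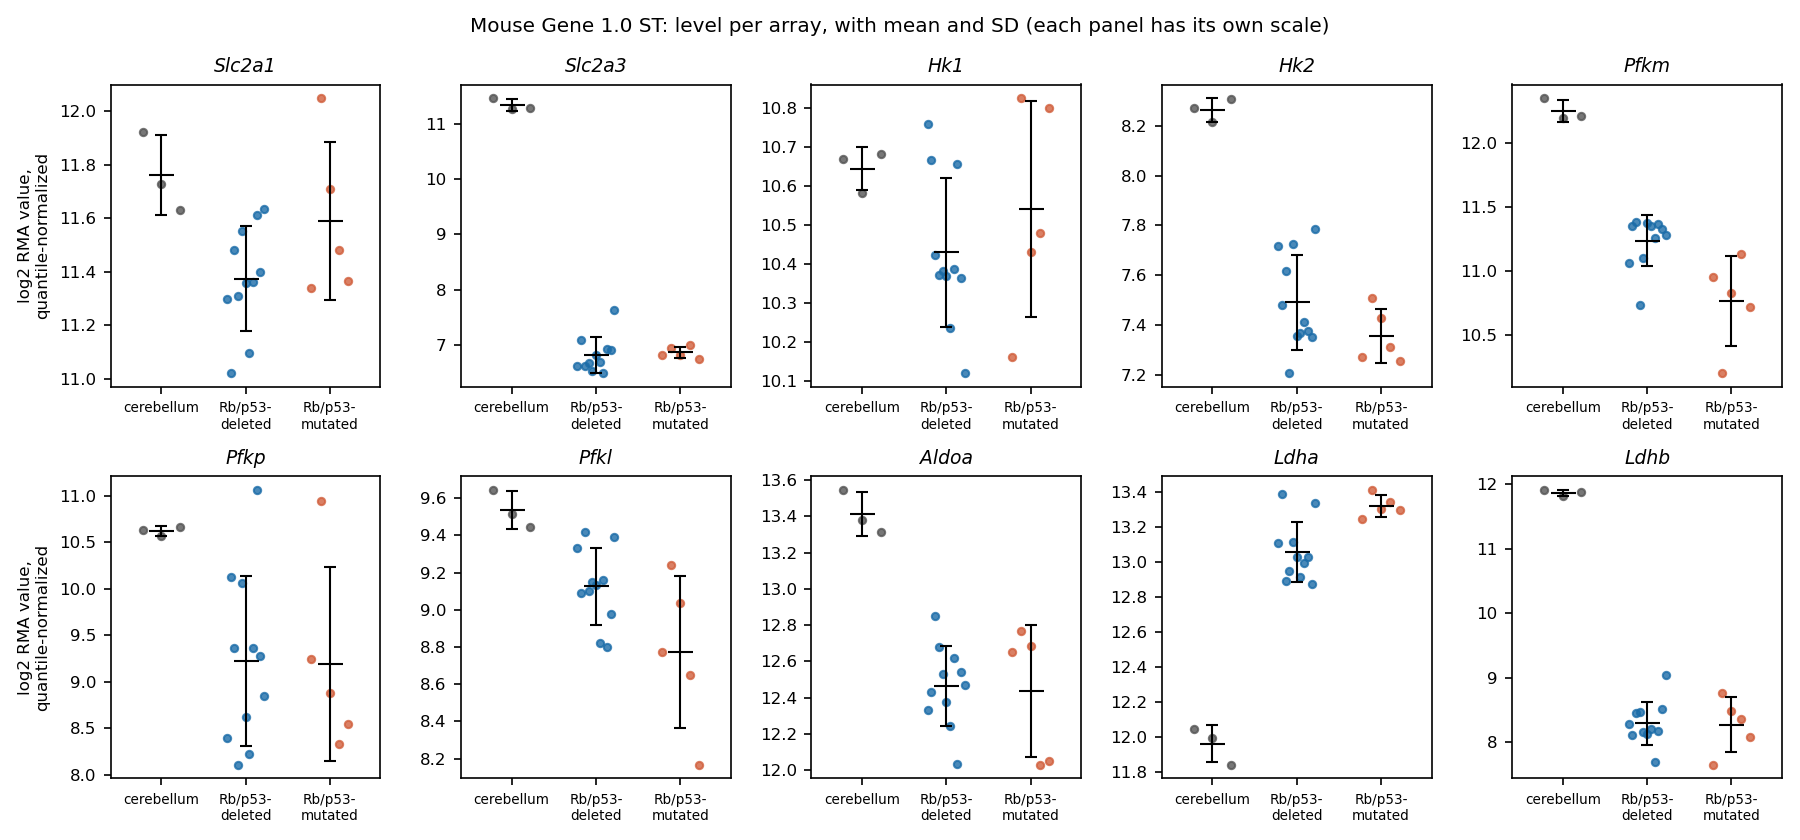
Level of each gene on the Mouse Gene 1.0 ST arrays (log2 RMA value after quantile normalization, 1 point per array) in cerebellum (n = 3), Rb/p53-deleted PBs (n = 11) and Rb/p53-mutated PBs (n = 5), with bars for the mean and SD and a separate vertical scale in each panel. Ldha lies above cerebellum in every tumor, Slc2a3 and Ldhb lie far below it, and Pfkp spreads from 8.11 to 11.06 within the Rb/p53-deleted group.

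Of the glucose transporters, Slc2a3 showed the largest fall of the 10 genes in both models. Its level was 11.46, 11.27 and 11.29 in cerebellum, while Rb/p53-deleted PBs ran from 6.49 to 7.62 (median 6.69) and the 5 Rb/p53-mutated PBs were at 6.81, 6.95, 6.82, 6.99 and 6.74. No tumor came near the cerebellum samples, and the highest tumor was Rb/p53-deleted PB11. All tumor levels of Slc2a3 lay below the array medians over named genes. Those were 8.02 to 8.12 in Rb/p53-deleted PBs and 7.97 to 8.06 in Rb/p53-mutated PBs. How near the levels were to background was not tested. The difference was -4.53 ± 0.18 (SE, adjusted p = 1.4e-12 in limma) in Rb/p53-deleted PBs, a 23.1-fold lower level, and -4.48 (adjusted p = 1.5e-09) in Rb/p53-mutated PBs, 22.3-fold lower.

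Slc2a1, the capillary and glial transporter, moved little. Cerebellum samples were at 11.92, 11.73 and 11.63, Rb/p53-deleted PBs ran from 11.02 to 11.64 (median 11.36), and Rb/p53-mutated PBs were at 11.34, 12.05, 11.71, 11.48 and 11.37. The tumor groups both overlapped cerebellum, with Rb/p53-mutated PB2 above every cerebellum sample. The difference was -0.39 (adjusted p = 0.0089) in Rb/p53-deleted PBs and -0.17 (adjusted p = 0.378, 95% interval -0.54 to 0.20) in Rb/p53-mutated PBs. The call in Rb/p53-deleted PBs was lost when any 1 of the 3 cerebellum samples was left out (adjusted p = 0.0126 to 0.0723), with all groups in 1 fit (adjusted p = 0.0189) and with the array set, described below, as a block (0.0055 on deposited and -0.13 on quantile-normalized values). In Rb/p53-mutated PBs deposited values gave -1.18 (adjusted p = 0.00011).

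Among hexokinases, which phosphorylate glucose on entry, Hk2 fell and Hk1 did not pass the test. Hk2 was at 8.27, 8.21 and 8.31 in cerebellum, from 7.21 to 7.79 (median 7.41) in Rb/p53-deleted PBs, and at 7.27, 7.51, 7.43, 7.31 and 7.25 in Rb/p53-mutated PBs. Every tumor was below every cerebellum sample. The difference was -0.77 (adjusted p = 1.3e-05) and -0.91 (adjusted p = 1.1e-05), 1.71-fold and 1.88-fold lower. With the array set as a block the call in Rb/p53-deleted PBs was lost (-0.51 on deposited values, adjusted p = 0.0167, and -0.48 on quantile-normalized values, adjusted p = 0.0396).

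Hk1 was at 10.67, 10.58 and 10.68 in cerebellum, from 10.12 to 10.76 (median 10.38) in Rb/p53-deleted PBs, and at 10.16, 10.83, 10.43, 10.48 and 10.80 in Rb/p53-mutated PBs. The 3 groups overlapped, with differences of -0.21 (adjusted p = 0.102, 95% interval -0.45 to 0.02) and -0.10 (adjusted p = 0.558, interval -0.44 to 0.23). On deposited values Hk1 was called lower in both models (-0.62, adjusted p = 7.2e-05, and -1.31, adjusted p = 1.1e-05), and on median-centred values in Rb/p53-deleted PBs (-0.45, adjusted p = 0.00107). A brighter probe cluster of the 1.0 array is also annotated to Hk1 alone, but only through a sequence record that all 16 clusters annotated to both Hk1 and the ribosomal gene Rpl17 list too. That cluster was higher in both models (0.52 and 0.55), the mean of both clusters stood at 0.15 and 0.22 and did not pass, and the cluster that lists a RefSeq transcript of Hk1 was used.

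All 3 phosphofructokinases, which carry out the committed step of glycolysis, had lower means in the tumors, and they differed in spread. Pfkm, the muscle-type subunit, was at 12.35, 12.19 and 12.21 in cerebellum, from 10.73 to 11.38 (median 11.33) in Rb/p53-deleted PBs, and at 10.96, 10.20, 10.83, 11.14 and 10.72 in Rb/p53-mutated PBs. No tumor reached cerebellum, and the differences were -1.01 (adjusted p = 1.1e-06) and -1.48 (adjusted p = 8.1e-05), 2.02-fold and 2.79-fold lower.

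Pfkl, the liver-type subunit, was at 9.65, 9.52 and 9.45 in cerebellum, from 8.80 to 9.42 (median 9.14) in Rb/p53-deleted PBs, and at 8.77, 9.24, 9.04, 8.65 and 8.17 in Rb/p53-mutated PBs. The groups did not overlap. The differences were -0.41 (adjusted p = 0.0068) and -0.76 (adjusted p = 0.00996), and both calls were lost when any 1 cerebellum sample was left out (adjusted p = 0.0144 to 0.0468 and 0.0258 to 0.0426). The call in Rb/p53-mutated PBs was also lost without PB1, PB3 or PB4 (adjusted p = 0.0165, 0.0112 and 0.0231). In Rb/p53-deleted PBs it was lost with all groups in 1 fit (adjusted p = 0.0327) and with the array set as a block (-0.13 on deposited and -0.14 on quantile-normalized values).

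Pfkp, the platelet-type subunit, varied more between tumors than the other 9 genes. It was at 10.63, 10.56 and 10.66 in cerebellum. In the order of their numbers, the 11 Rb/p53-deleted PBs were at 8.40, 10.12, 9.36, 8.11, 10.06, 8.62, 8.22, 9.36, 11.06, 9.27 and 8.85, and the 5 Rb/p53-mutated PBs at 9.24, 10.94, 8.88, 8.33 and 8.55. In each model 1 tumor exceeded all cerebellum samples (PB9 and PB2) and all others were below them, a 7.75-fold span among Rb/p53-deleted PBs and a 6.12-fold span among Rb/p53-mutated PBs. The SD was 0.92 and 1.04, and 99.7% and 99.5% of all named genes had a smaller SD within the same group, whereas the SD in cerebellum was 0.05. The differences of -1.40 (adjusted p = 0.0179) and -1.43 (adjusted p = 0.0311) did not pass the test. They passed on deposited values (-1.77, adjusted p = 0.00266, and -2.65, adjusted p = 0.00065), and on median-centred values in Rb/p53-deleted PBs (-1.60, adjusted p = 0.0047). Without Rb/p53-mutated PB2 the difference of that model was -1.87 (adjusted p = 5.0e-05).

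Aldoa, the aldolase that splits fructose bisphosphate, was at 13.55, 13.38 and 13.31 in cerebellum, from 12.03 to 12.85 (median 12.47) in Rb/p53-deleted PBs, and at 12.65, 12.77, 12.68, 12.03 and 12.05 in Rb/p53-mutated PBs. Every tumor was below every cerebellum sample. The differences were -0.95 (adjusted p = 7.0e-06) and -0.98 (adjusted p = 0.00152), 1.93-fold and 1.97-fold lower. On median-centred values the call in Rb/p53-mutated PBs was lost (-0.35, adjusted p = 0.193), and with the array set as a block on deposited values that in Rb/p53-deleted PBs was lost (-0.53, adjusted p = 0.0649).

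At the last step the 2 lactate dehydrogenase genes diverged. Ldha was at 12.05, 11.99 and 11.84 in cerebellum, from 12.87 to 13.39 (median 13.03) in Rb/p53-deleted PBs, and at 13.25, 13.41, 13.30, 13.34 and 13.30 in Rb/p53-mutated PBs. All 16 tumors were above all 3 cerebellum samples, and the 5 Rb/p53-mutated PBs were tightly grouped. The difference was 1.10 ± 0.10 (SE, adjusted p = 1.1e-07), 2.14-fold higher, in Rb/p53-deleted PBs, and 1.36 (adjusted p = 4.5e-07), 2.57-fold higher, in Rb/p53-mutated PBs.

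Ldhb was at 11.91, 11.82 and 11.88 in cerebellum, from 7.70 to 9.05 (median 8.21) in Rb/p53-deleted PBs, and at 7.65, 8.76, 8.49, 8.36 and 8.08 in Rb/p53-mutated PBs. No tumor overlapped cerebellum, and PB11 was again the highest Rb/p53-deleted PB. The difference was -3.58 (adjusted p = 3.9e-11) and -3.60 (adjusted p = 5.3e-07), 11.9-fold and 12.1-fold lower. A second probe cluster of Ldhb, not used in the fit, had means of 7.15 in Rb/p53-deleted PBs, 7.63 in Rb/p53-mutated PBs and 11.68 in cerebellum.

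**Figure D2:**
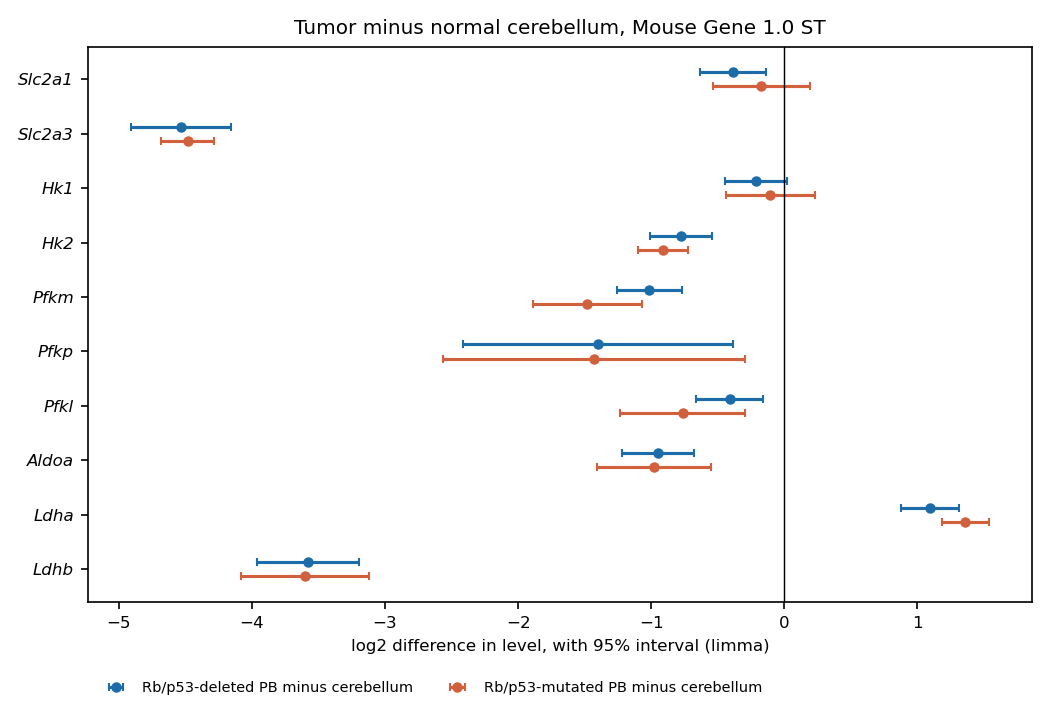
Difference between tumor and cerebellum for each of the 10 genes (horizontal axis, log2 scale, Mouse Gene 1.0 ST, points with 95% intervals from limma) in the Rb/p53-deleted and the Rb/p53-mutated model, which share the 3 cerebellum samples. Ldha is the only gene to the right of 0 (1.10 and 1.36), and Slc2a3 and Ldhb lie furthest to the left.

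Counted by overlap, 1 gene was higher with no overlap and 6 lower in Rb/p53-deleted PBs (22.7% and 25.6% of all genes), and 1 and 6 in Rb/p53-mutated PBs (30.2% and 34.1%). The deposited arrays of the 1.0 table do not share a common scale. The median over all probe clusters was 7.04 to 7.12 in Rb/p53-mutated PBs, against 7.95 to 8.01 in cerebellum and 7.90 to 7.97 in PB1 to PB10. The interquartile range of PB11 (3.24) was like that of cerebellum (3.17 to 3.25) and unlike that of PB1 to PB10 (2.57 to 2.87). The array sets were inferred from these medians and ranges, and no sample label names them. With PB1 to PB10 set apart from PB11 and cerebellum as a block, the estimate rests on PB11 alone. On deposited values this kept 1 gene higher (Ldha, 1.26) and 2 lower (Slc2a3 at -3.97 and Ldhb at -2.76), and Pfkm at -0.72 (adjusted p = 0.0109) lost its call along with Hk2, Pfkl, Aldoa and Slc2a1. On quantile-normalized values, tried after the data were seen, it kept 1 gene higher (Ldha, 1.38) and 4 lower (Slc2a3 at -3.72, Ldhb at -2.82, Pfkm at -0.97 and Aldoa at -0.94).

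Markers of cerebellar cells moved with these differences. Mean log2 levels over 10 granule neuron markers were 12.57 to 12.61 in cerebellum, 8.67 to 9.17 in Rb/p53-deleted PBs and 8.43 to 8.80 in Rb/p53-mutated PBs, and all 10 fell in both models. Over 6 Purkinje cell markers the levels were 12.50 to 12.54, 6.73 to 7.82 and 6.56 to 6.82, and over 9 astrocyte markers 10.92 to 11.06, 7.52 to 8.46 and 7.86 to 8.40. Over 8 oligodendrocyte markers the levels were 10.07 to 10.40, 7.16 to 7.62 and 6.98 to 7.40. The 10 endothelial markers differed less (8.49 to 8.55, 7.90 to 8.36 and 8.09 to 8.57), and 9 pinealocyte and photoreceptor markers were at 6.94 to 7.32 in cerebellum and at 11.27 to 11.56 and 11.27 to 11.46 in the tumors. In bulk tissue, fewer cells of a type and less RNA per cell cannot be told apart, and the part of cell makeup in the fall of Slc2a3, Ldhb and the other genes was not tested.

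The balance between isozymes was read as the difference of 2 genes within an array, which leaves out any shift common to that array. Because probe clusters differ in brightness, the ratio itself is not a ratio of transcripts, and only its difference between groups was compared, in 5 ratios and 4 comparisons (20 exact permutation tests, two-sided, given without adjustment). The smallest p the design allows is 0.00549 for 11 tumors against 3 cerebellum samples and 0.0357 for 5 against 3.

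The ratio of Ldhb to Ldha was -0.09 ± 0.11 (SD, n = 3, log2) in cerebellum, -4.77 ± 0.35 (n = 11) in Rb/p53-deleted PBs and -5.05 ± 0.37 (n = 5) in Rb/p53-mutated PBs. The balance had thus moved toward Ldha by 25.5-fold (exact p = 0.00549) and 31.2-fold (exact p = 0.0357), each at the smallest p possible, with no overlap. That of Slc2a3 to Slc2a1 was -0.42 ± 0.07 in cerebellum, -4.56 ± 0.34 in Rb/p53-deleted PBs and -4.73 ± 0.26 in Rb/p53-mutated PBs, a move toward Slc2a1 of 17.7-fold and 19.8-fold with the same exact p-values and no overlap.

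Smaller moves were seen at the other steps. Hk2 relative to Hk1 was lower by 1.47-fold in Rb/p53-deleted PBs (exact p = 0.022, groups overlapping through PB11) and by 1.75-fold in Rb/p53-mutated PBs (exact p = 0.0357, no overlap). Pfkl relative to Pfkm was higher by 1.52-fold (exact p = 0.00549) and 1.64-fold (exact p = 0.0357), both without overlap, since Pfkm fell further than Pfkl. Pfkp relative to Pfkm spread from -3.13 to -0.30 among Rb/p53-deleted PBs and from -2.81 to 0.74 among Rb/p53-mutated PBs, around cerebellum at -1.72 to -1.54, and did not pass the test (exact p = 0.462 and 0.821).

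**Figure D3:**
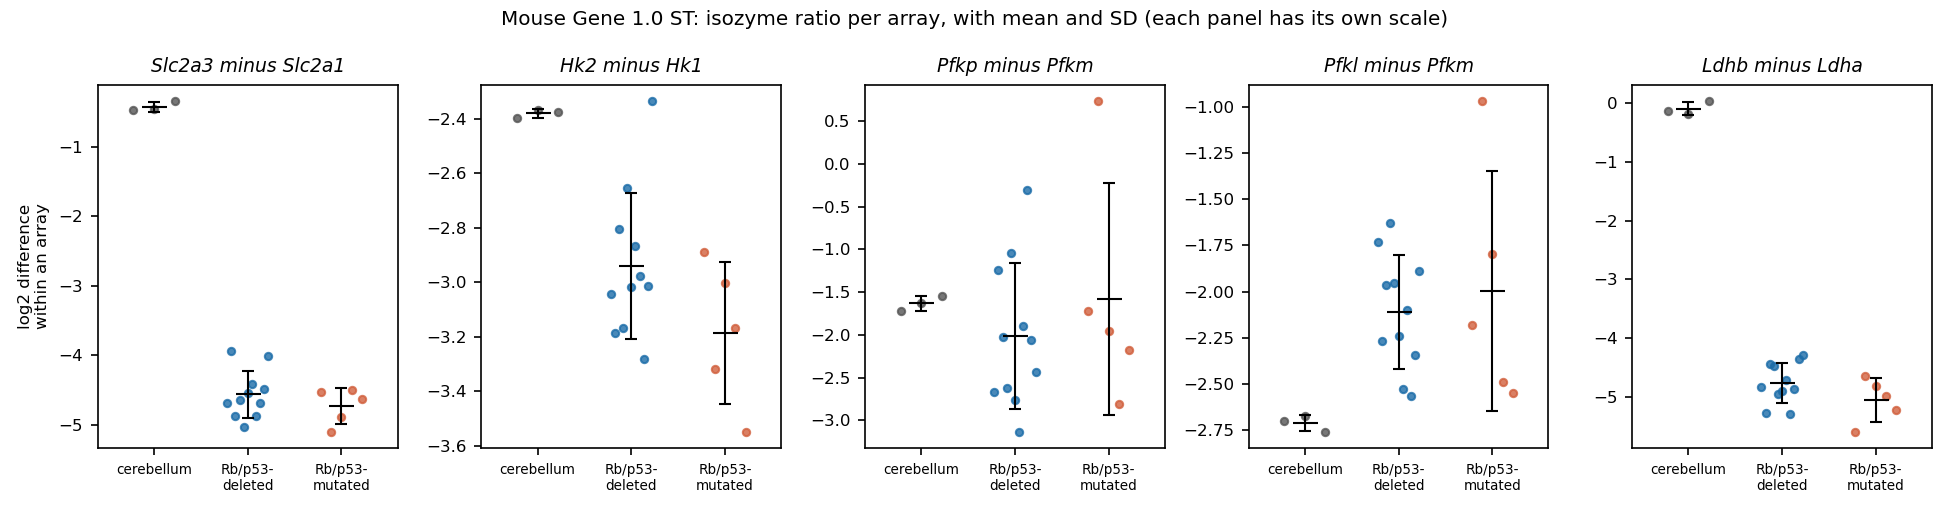
Isozyme ratios within each Mouse Gene 1.0 ST array (vertical axis, log2 difference of 2 genes, 1 point per array, bars for the mean and SD, a separate scale in each panel) in cerebellum, the Rb/p53-deleted and the Rb/p53-mutated model. Ldhb minus Ldha and Slc2a3 minus Slc2a1 are more than 3 log2 units lower in every tumor than in cerebellum, and Pfkp minus Pfkm of the tumors spreads to both sides of cerebellum.

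Rb/p53-mutated PBs differed from Rb/p53-deleted PBs by less than 0.5 on the log2 scale in all 10 genes. Ldha was higher (0.26, adjusted p = 0.0136), Pfkm was lower (-0.47, adjusted p = 0.0065) and Pfkl was lower (-0.35, adjusted p = 0.0476) at the threshold of 0.05, where 20.6% of all genes were called higher and 25.9% lower. No gene separated the groups (7.3% of all genes were higher and 8.37% lower without overlap). None of the 5 ratios passed its exact test (p = 0.0984 to 0.612). On deposited values Ldhb to Ldha and Hk2 to Hk1 did pass at 0.05, as given in the last paragraph. The call of Pfkl was lost without Rb/p53-mutated PB1, PB4 or PB5 or without Rb/p53-deleted PB11 (adjusted p = 0.0654 to 0.2003), and those of Ldha and Pfkm were kept in each such fit. The calls depended on the scale. On median-centred values Pfkm (-0.31, adjusted p = 0.0751) and Pfkl (-0.30, adjusted p = 0.111) lost theirs and Slc2a1 was called higher (0.44, adjusted p = 0.0164). On the deposited values, where the median over all genes was -0.86, 8 of the 10 genes were called lower and none higher, with Slc2a1 at -0.48, Slc2a3 at -0.80, Hk1 at -0.69 and Ldha at 0.01. Array set and p53 allele cannot be told apart in this comparison. Mean log2 levels over 10 microglia and macrophage markers were 8.75 to 9.28 in Rb/p53-mutated PBs and 8.29 to 8.68 in Rb/p53-deleted PBs, and those over 6 skeletal muscle markers were 7.05 to 8.83 and 7.28 to 8.29. The part of these cells in the differences of Ldha, Pfkm and Pfkl was not tested.

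The rest of the pathway was read from lists of other genes, in the same fits. Counts in this and the next paragraphs have as background the shares of all named genes that passed. Against cerebellum, 24.9% of all genes rose and 27.7% fell in the deleted model, and 23.8% rose and 27.6% fell in the mutated model. Between the tumor models the shares were 20.6% and 25.9%. Whether any list departed from these shares was not tested. Calls of the listed genes come from the quantile-normalized values alone. They were not repeated on other scales, with samples left out or with the array set as a block. Between the tumor models, 4116 genes were called higher and 5157 lower, against 147 and 18390 on deposited values. Median-centred values gave 5451 and 2816. Of 15 other glycolysis enzymes measured, 6 fell and 2 rose in Rb/p53-deleted PBs, and 7 fell and 3 rose in Rb/p53-mutated PBs. Aldoc, the aldolase of astrocytes and Purkinje cells, was lower (-4.66 and -4.71), as was Eno2, the neuronal enolase (-4.04 and -3.94). Bpgm, the bisphosphoglycerate mutase, followed at -1.03 and -1.28. Rb/p53-mutated PBs had less Pkm (-0.41) and Pgk1 (-0.46), which carry out the ATP-forming steps, and more Hk3 (0.34) than Rb/p53-deleted PBs, among 3 higher and 3 lower of the 15.

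Of 11 other hexose transporters, 1 was higher and 6 were lower in each model against cerebellum. Slc2a12, a glucose transporter, was the gene that rose, with no overlap in either model. It rose by 3.23 (7.86 ± 0.05 in cerebellum, 11.09 ± 0.60 in Rb/p53-deleted PBs) and by 2.10 in Rb/p53-mutated PBs. The proton and myo-inositol transporter Slc2a13 was lower (-2.28 and -2.49), and so was Slc2a6 (-1.80 and -1.59). Between the tumor models Slc2a12 was lower (-1.13, adjusted p = 0.0082) and Slc2a10 higher (0.72) in Rb/p53-mutated PBs, among 2 higher and 4 lower.

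Of 7 genes of lactate and pyruvate transport, 2 were higher and 4 lower in each model. Slc16a3, the monocarboxylate transporter MCT4 known for lactate export, rose by 1.16 and 0.88, and Slc16a1 (MCT1) was lower (-1.14 and -1.36). Emb, a chaperone of monocarboxylate transporters, was at -2.75 and -2.78, and the mitochondrial pyruvate carrier subunit Mpc1 at -1.35 and -1.15, with Slc16a7 (MCT2, the neuronal form) at -0.90 and -1.27. Only Slc16a8, a transporter of retinal pigment epithelium, passed between the tumor models (-0.27).

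Of the 12 genes listed under pyruvate dehydrogenase and its kinases, none was higher, and 9 were lower in Rb/p53-deleted PBs and 8 in Rb/p53-mutated PBs. They included the kinase Pdk2 (-1.41 and -1.20), the pyruvate carboxylase Pcx (-0.95 and -1.11), and the subunits Pdhb (-0.94 and -0.998) and Pdha1 (-0.83 and -1.57). Pdha1 was also lower in Rb/p53-mutated than in Rb/p53-deleted PBs (-0.74), as were Pdhx (-0.49) and the phosphatase Pdp1 (-0.35), among 4 lower and none higher. Of 6 regulators of phosphofructokinase and fructose bisphosphatases, 1 was lower in Rb/p53-deleted PBs (Pfkfb2, -0.33) and none was called in Rb/p53-mutated PBs, where Pfkfb4 had the smallest p (-0.55, adjusted p = 0.0192). Pfkfb4 was lower in Rb/p53-mutated than in Rb/p53-deleted PBs (-0.36).

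Of 12 hypoxia-induced genes, 4 rose and 3 fell in Rb/p53-deleted PBs, and 2 rose and 2 fell in Rb/p53-mutated PBs. Car9, a carbonic anhydrase, was lower (-1.71 and -1.95), as was the transcription factor Bhlhe40 (-1.20 and -1.18), while the demethylase Kdm3a was higher (1.07 and 0.62). The peptide hormone precursor Adm was higher in Rb/p53-deleted PBs (1.64) and stood at 1.28 in Rb/p53-mutated PBs (adjusted p = 0.0206). Between the models Bnip3 was higher (0.60), P4ha2 was lower (-0.51) and Kdm3a was lower (-0.46) in Rb/p53-mutated PBs, among 2 higher and 5 lower.

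Of 12 transcription factors and sensors of glycolysis, 6 rose and 3 fell in Rb/p53-deleted PBs, and 4 rose and 3 fell in Rb/p53-mutated PBs. Mycn rose by 3.06 (7.79 ± 0.16 in cerebellum, 10.84 ± 0.28 in Rb/p53-deleted PBs) and by 3.96 in Rb/p53-mutated PBs, and Myc rose by 2.60 and 2.09. Both are E-box binding factors, and whether they act on any of the genes followed here was not tested. The carbohydrate sensor Mlxipl rose by 2.02 and 2.37, and Ppargc1a, a coactivator of mitochondrial genes, was lower (-2.10 and -1.30). Between the tumor models, with differences taken as mutated minus deleted, Txnip, an inhibitor of glucose uptake, was lower (-1.16), Mycn was higher (0.90) and Ppargc1a was higher (0.80), among 5 higher and 1 lower.

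Within the tumors, the genes most like a given member were sought over the 16 tumor arrays of the 1.0 table after each group mean was taken out. The genes with the highest Pearson correlation were Cish (r = 0.84), Bdkrb1 (0.80) and Dnaaf2 (0.78) for Slc2a1, Rwdd1 (0.85), Mycbp (0.82) and Jdp2 (0.79) for Hk2, and Armc1 (0.94), Snapin (0.90) and Ddx25 (0.90) for Ldha. Without the 2 arrays farthest from the median of the member, the first gene of each stood at 0.79, 0.73 and 0.79. Pfkp was added after its spread was seen, and Usp2 (0.96), Ammecr1 (0.95) and Thsd4 (0.95) were most like it, with 0.94 for Usp2 without the 2 farthest arrays. These are the highest correlations among all named genes, over arrays that share a normalization, and are given as a description.

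On the 2.0 arrays, Rb/Dicer1/p53-deleted PBs were set against Dicer1/p53-deleted PBs. None of the 9 genes measured was called by limma at an adjusted p of 0.05, and 0% of all 22180 genes were called. At an unadjusted p under 0.05 there were 1941 genes (8.75%) and 1 of the 9, Ldhb. In simulated data of this size the test recovered 76% of genes that differed by 2 on the log2 scale and 22% of those that differed by 1. The levels of this table are deposited log2 RMA values and are not comparable with those of the 1.0 arrays.

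Ldhb was at 6.13, 6.07 and 5.79 in Dicer1/p53-deleted PBs and at 5.20, 5.66 and 5.32 in Rb/Dicer1/p53-deleted PBs. It was the only one of the 9 whose groups did not overlap, lower with Rb deleted as well (of all genes, 7.42% were lower and 7.37% higher without overlap). The difference was -0.60 (adjusted p = 0.483, 95% interval -1.03 to -0.17). Ldha was at 9.39, 9.15 and 9.83 against 8.96, 9.74 and 9.11, with overlap and a difference of -0.19 (interval -0.80 to 0.42).

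Slc2a1 was at 10.64, 7.77 and 10.27 in Dicer1/p53-deleted PBs and at 9.70, 10.57 and 10.62 in Rb/Dicer1/p53-deleted PBs. A single tumor, Dicer1/p53-deleted PB2, was thus far below the other 5, and 99.8% of all genes had a smaller SD in its group. The difference was 0.73 with that tumor (adjusted p = 0.789, 95% interval -0.89 to 2.35) and -0.16 without it. A second, dimmer probe cluster of Slc2a1, not used in the fit, did not show this spread. It ran from 4.63 to 5.43 (mean 5.09) in Dicer1/p53-deleted PBs and had a mean of 5.02 in Rb/Dicer1/p53-deleted PBs. Slc2a3 was at 5.36, 4.86 and 4.86 against 4.37, 4.92 and 5.06, with a difference of -0.25 (interval -0.80 to 0.30). All of these Slc2a3 levels were below the array medians over named genes.

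The hexokinases overlapped too, with Hk1 at 7.48, 7.13 and 6.72 against 6.39, 7.18 and 7.85 (difference 0.03) and Hk2 at 6.49, 5.42 and 6.22 against 6.36, 5.84 and 6.84 (difference 0.30). Among phosphofructokinases, Pfkl was nearly equal in the 3 Dicer1/p53-deleted PBs (7.89, 7.89 and 7.98) and spread from 7.42 to 8.92 in Rb/Dicer1/p53-deleted PBs. Pfkm ran from 7.39 to 8.63 and from 7.95 to 8.92, and Pfkp from 7.67 to 8.89 and from 7.26 to 8.73. The intervals ran from -0.82 to 0.89 for Hk1, from -0.49 to 1.09 for Hk2, from -0.44 to 1.35 for Pfkm, from -1.03 to 1.05 for Pfkp and from -0.57 to 1.02 for Pfkl, so no difference within these bounds was excluded.

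PB12, the 1 Rb/p53-deleted PB on this array, gave a value without a replicate. It had the lowest Pfkp (6.27), Pfkl (7.12) and Ldha (8.41) of the 7 arrays. Its Slc2a3 (4.49), Ldhb (5.36), Hk1 (7.54), Hk2 (5.67), Pfkm (8.83) and Slc2a1 (9.02) lay within the range of the 6 Dicer1 tumors. Its Slc2a3, Hk2 and Slc2a1 were each above only 1 of those tumors. That tumor was Rb/Dicer1/p53-deleted PB1 (4.37) for Slc2a3. For Hk2 (5.42) and Slc2a1 (7.77) it was Dicer1/p53-deleted PB2.

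**Figure D4:**
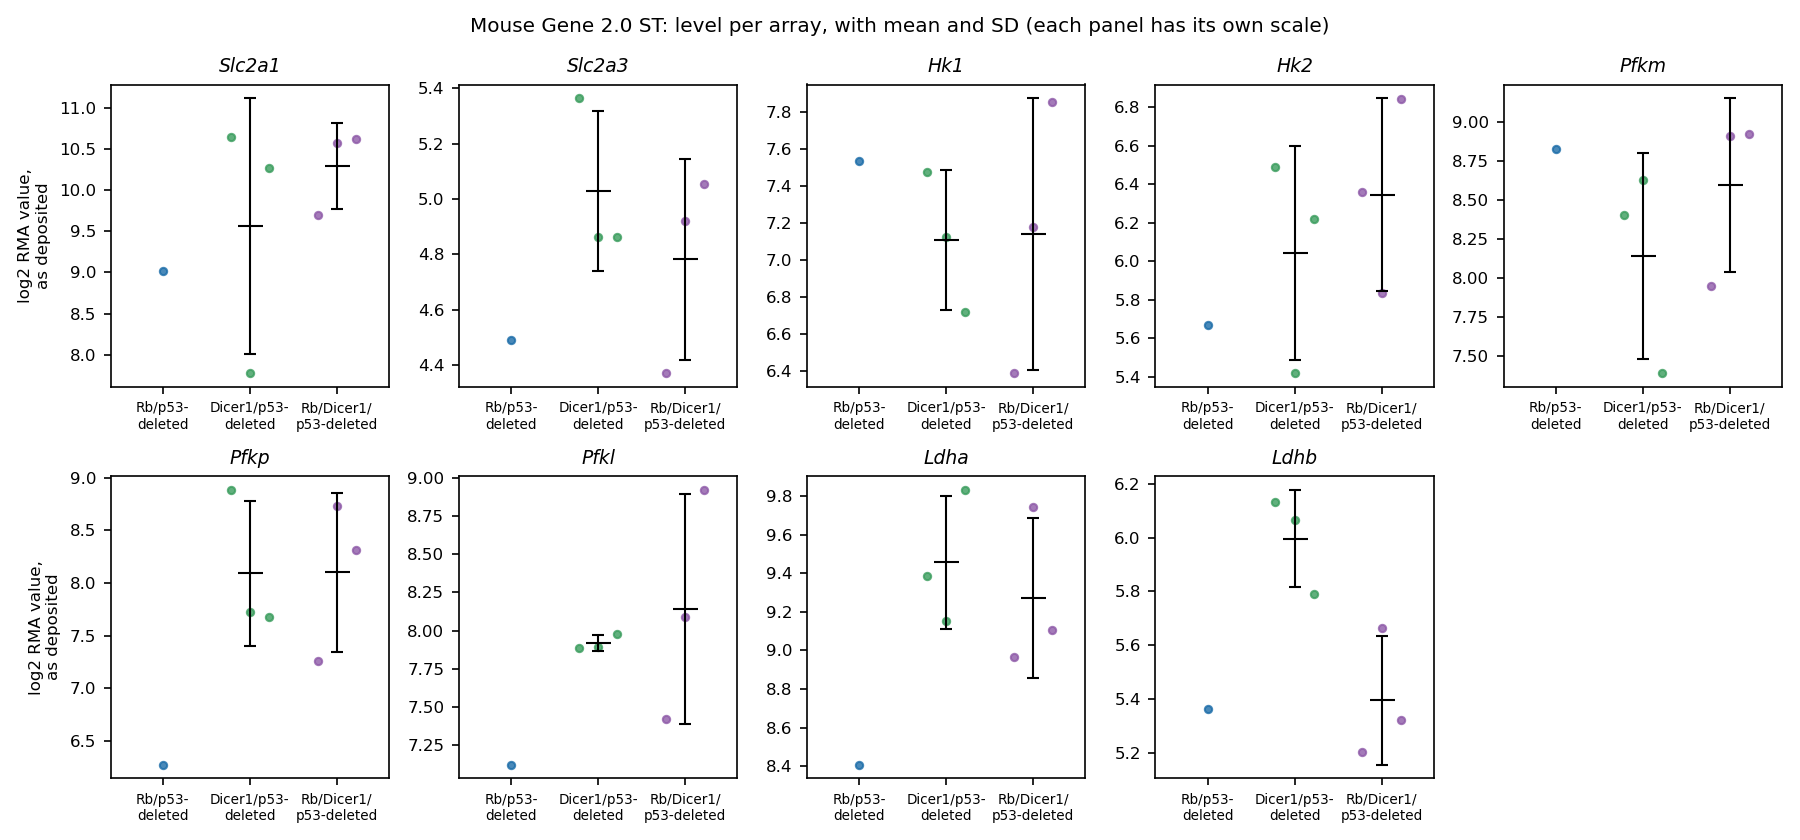
Level of 9 genes on the Mouse Gene 2.0 ST arrays (deposited log2 RMA value, 1 point per array) in Rb/p53-deleted PB12 (n = 1), Dicer1/p53-deleted PBs (n = 3) and Rb/Dicer1/p53-deleted PBs (n = 3), with bars for the mean and SD where n = 3 and a separate scale in each panel. The groups of 3 overlap in every gene but Ldhb, and 1 Dicer1/p53-deleted PB has Slc2a1 at 7.77.

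The ratios did not separate these tumors either. With 3 against 3 the smallest exact p is 0.1, and the 5 ratios gave 0.2 to 0.7, with Ldhb relative to Ldha at -3.46 ± 0.51 and -3.88 ± 0.18. Of the other lists, 0 genes passed. The gene with the smallest p in each was Pgam1 (0.62) among glycolysis enzymes, Slc2a4 (-0.31) among hexose transporters, Slc16a7 (-0.35) in lactate transport, Pfkfb3 (0.28) among regulators of phosphofructokinase, Pcx (0.80) in the pyruvate dehydrogenase list, Bhlhe40 (0.53) among hypoxia-induced genes and Ppargc1a (0.81) among transcription factors, each as a difference in log2 level. Rb1 was read as a check of the labels, and was at 9.52, 9.97 and 9.61 in Dicer1/p53-deleted PBs and at 8.79, 8.54 and 8.30 in Rb/Dicer1/p53-deleted PBs, without overlap (difference -1.16, adjusted p = 0.371), but on the 1.0 arrays Rb1 was at 10.37 ± 0.29 in Rb/p53-deleted PBs and at 10.03 ± 0.05 in cerebellum (adjusted p = 0.0758). Dicer1 was at 7.75, 8.03 and 7.95 in Dicer1/p53-deleted PBs and at 8.28, 7.88 and 7.81 in Rb/Dicer1/p53-deleted PBs, against 8.27 in PB12, in which Dicer1 was not floxed and which lay within the range of the others. Probes outside the deleted exons need not fall, and Trp53 was not analysed here.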

How the data were processed

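Total RNA of 26 samples was hybridised to Affymetrix Mouse Gene 1.0 ST or 2.0 ST arrays, 1 sample per array. The authors deposited log2 values summarised by RMA in Affymetrix Expression Console, the version of which is not given in the sources used here, and their number of arrays limits the precision. Each table was analysed on its own, and 0 columns were left without a sample. The 10 genes, the gene lists and the tests were chosen with earlier results of these data known.

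A gene was taken from clusters with 1 symbol. The design named the brightest cluster. After the data were seen, clusters listing a RefSeq transcript were put first, which changed 37 genes on the 1.0 array and 0 on the 2.0 array. On the 2.0 array no cluster of the genes followed here listed such a transcript. The rule could therefore not act on them there, and their brightest cluster was kept unchecked. The 1.0 arrays were quantile-normalized because the deposited arrays differed in scale. The 2.0 values were used as deposited. Differences were tested with limma 3.58.1 in R 4.3.3 (lmFit, eBayes) over all named genes, with Benjamini-Hochberg adjustment, at 0.01 against cerebellum, as in the study's methods, and at 0.05 otherwise. Ratios were compared by exact permutation tests (scipy 1.17.1, Python 3.11.15). All 10 genes are named, with up to 3 called genes of largest difference from each list and comparison, or the 1 of smallest p where none was called. In simulated data of 19938 genes against cerebellum, 82% of genes made lower by 1 log2 unit were recovered for Rb/p53-deleted PBs and 76% for Rb/p53-mutated PBs. Of those made higher, 94% and 84% were recovered at 1 log2 unit and 42% and 22% at 0.5. Under Benjamini-Hochberg adjustment recovery depends on the share of genes that differ, so these shares may not hold for the tumor comparisons.

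Alternatives were deposited and median-centred values, the mean of all clusters, a filter on dim genes and a fit over all groups. Others were a replicate block, single samples left out and the set of arrays, inferred from the values, as a block. Of the Rb/p53-deleted PBs, only PB11 was left out. The brightest cluster, and the array set on quantile-normalized values, were added after the data were seen.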

Additional observations from a re-analysis of the deposited data

How the results depend on the processing

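Over the alternatives, 471 of the values for single genes kept their side of the threshold, 26 of these with a change of sign in a difference that was not called. A further 35 lost the call, 12 gained it and 6 reversed. The values that kept their side include those of the 2.0 comparison, where no gene was called in any fit. The causes were not tested. Against cerebellum, 1 gene was called higher in each fit with 1 sample left out, and 5 to 7 were lower in each model. Of the Rb/p53-deleted PBs, only PB11 was left out in these fits. With the array set as a block, 2 genes were lower in Rb/p53-deleted PBs on deposited values (Slc2a1 0.0055) and 4 on quantile-normalized values. With the brightest cluster of each gene, 2 genes were higher in each model, since Hk1 turned to 0.52 and 0.55. The replicate block gave 1 gene higher and 5 lower in each model, and 0 higher and 0 lower between the models. The numbers did not pair the samples, with correlations of deviations from -0.20 to 0.29. Between the models, mutated minus deleted, deposited values gave 0 higher and 8 lower (Slc2a1 -0.48, Slc2a3 -0.80, Hk1 -0.69), centred values gave 2 and 0, and leaving out samples gave 1 to 2 lower. Over all genes, deposited values gave 147 higher and 18390 lower and centred values 5451 and 2816, against 4116 and 5157. In Rb/p53-mutated PBs against cerebellum, deposited values gave 995 and 15076. With the array set as a block, 2865 to 3381 genes were higher and 3084 to 3185 lower in Rb/p53-deleted PBs. The median over all genes moved to -0.92 against cerebellum in Rb/p53-mutated PBs with deposited values, and to 0.12 and 0.18 in the 2 models when centred.

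Among ratios, Hk2 to Hk1 in Rb/p53-deleted PBs ran from -0.62 to -0.55 without PB11 or any single cerebellum sample (exact p up to 0.0769). In Rb/p53-mutated PBs, single tumors or cerebellum samples were left out in turn. This gave -4.37 to -4.22 for Slc2a3 to Slc2a1 and -0.88 to -0.72 for Hk2 to Hk1. It gave 0.46 to 0.86 for Pfkl to Pfkm and -5.06 to -4.83 for Ldhb to Ldha. The smallest exact p was then 0.0571 to 0.0952 in permutations of so few samples. Deposited values gave 0.50 for Pfkl to Pfkm (exact p = 0.179). Between the models they gave -0.29 for Hk2 to Hk1 (exact p = 0.0169) and -0.92 for Ldhb to Ldha (exact p = 0.000458). With samples left out, Hk2 to Hk1 ran from -0.32 to -0.15 (exact p = 0.041 to 0.293).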
